A study of Mus musculus with 12 samples.

Results

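The genes described here encode the subunits of the ligand-gated ion channels of synapses: nicotinic acetylcholine, GABA-A, glycine, AMPA, kainate and NMDA receptors. They were taken from a list of 53 gene names, out of 21631 protein-coding genes on chromosomes 1 to 19 and X, and each was placed by its RefSeq span on the mouse genome build mm10. A gene was called open in a library when a peak of accessible chromatin in that library's deposited list lay within 1 kb of either end of the span. Accessibility had been measured by ATAC-seq, in which a transposase cuts DNA that is not packed into nucleosomes, and the deposited peaks stand, by the labels, for DNA free of nucleosomes.

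The libraries came from mTEChi, the mature medullary thymic epithelial cells that express much MHC class II, sorted from C57BL/6 mice aged 4 to 7 weeks. There were 2 libraries of Aire -/- cells with 2 Aire +/+ libraries beside them, 2 of Aire +/C313Y with 2 Aire +/+, and 2 of Aire +/C442G with 2 Aire +/+. The C313Y and C442G mice each carried 1 wild-type allele, and each mutation exchanges a cysteine of AIRE. The wild types were assigned to the 3 sets by the form of their titles. The labels do not say how many mice gave each library or whether replicates came from separate sorts, so the spread between replicates may be technical.

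Nicotinic receptors open on binding acetylcholine and the muscle form drives contraction at the neuromuscular junction. GABA-A and glycine receptors pass chloride and damp neurons, while AMPA, kainate and NMDA receptors pass cations on binding glutamate. Medullary thymic epithelial cells make small amounts of many such tissue-restricted proteins, in large part under the control of AIRE, and so expose developing T cells to them. Several of these receptors are targets of autoantibodies in people, among them the muscle nicotinic receptor in myasthenia gravis and the NMDA receptor in encephalitis.

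The lists differed widely in length. They held 85826 and 94976 peaks in the Aire -/- libraries, against 34715 and 34047 in the wild types of that set. The C313Y heterozygotes had 75830 and 57280 peaks, against 73976 and 55861 in their wild types, and the C442G heterozygotes had 122326 and 115034, against 93659 and 94458. The files give no reads, so sequencing depth is unknown and the length of a list is its only trace. Of 12 genes listed as markers of medullary thymic epithelial cells, not all of them particular to the mature ones, 6 were open in all 12 libraries. These were Aire, Epcam, Cd74, H2-Aa, H2-Ab1 and Tnfrsf11a. Fezf2 was open in 11, Cd86 in 9, and Krt5 and Krt14 in 8 each. Ccl21a, a chemokine gene, and Cd80, a costimulatory gene that marks the mature cells, were open in 1 each. By library, 8 and 9 of the 12 were open in Aire -/- cells, against 7 and 6, 11 and 8 in C313Y heterozygotes, against 10 and 10, and 10 and 10 in C442G heterozygotes, against 10 and 11. The Aire locus was open in the knockouts too, so these peaks give no check of the allele. Of 31 marker genes of T cells, dendritic cells and macrophages, B cells, endothelium and fibroblasts, 11 and 13 were open in Aire -/- libraries, against 5 and 3 in their wild types. The C313Y libraries had 12 and 10, against 13 and 9, and the C442G libraries 17 and 16, against 18 and 13. Over all genes, too, more were open in Aire -/- libraries, 61.3% and 63%, against 51.6% and 51.6% in their wild types. Flt3, Xcr1 and Spi1, of dendritic cells and macrophages, were open in all 12 and the fibroblast gene Col1a1 in 11. Among those closed in all 12 were Lck, Rag1, Ms4a1, Pecam1, Cdh5 and Col3a1. Whether other cells take part in any result below was not tested.

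Receptor genes were open less steadily than genes at large. In the Aire -/- libraries 28 and 27 of the 53 were open, against 17 and 18 in the wild types of that set. The C313Y heterozygotes had 28 and 23 open, against 24 and 22 in their wild types. The C442G heterozygotes had 32 and 34, against 27 and 33. The Aire -/- pair therefore stood clear of its own wild types, whereas the ranges of the other 2 sets overlapped. As means, 27.5 ± 0.707 receptor genes were open in Aire -/- cells and 17.5 ± 0.707 in their wild types (SD, n = 2 each), 25.5 ± 3.54 in C313Y heterozygotes and 23 ± 1.41 in theirs, and 33 ± 1.41 in C442G heterozygotes and 30 ± 4.24 in theirs. No p is given for these counts, since the genes were chosen with earlier results known.

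The same step was present over all genes. In the knockout set 61.3% and 63% of all 21631 genes were open in Aire -/- libraries, against 51.6% and 51.6% in wild types. The shares over all genes were 63% and 59.2% in C313Y heterozygotes, against 61% and 59.2%, and 66.2% and 65.2% in C442G heterozygotes, against 63.5% and 64.5%. When each set was trimmed to its shortest list by keeping the strongest peaks, the direction turned round in the knockout set. Then 11 and 11 receptor genes were open in Aire -/- libraries, against 17 and 18 in the wild types. Over all genes it turned slightly too, with 49.4% and 49.5% open, against 51.3% and 51.6%. Trimmed C313Y heterozygotes had 27 and 22 open receptor genes, against 23 and 22, and 60.3% and 59.0% of all genes, against 58.6% and 59.2%. Trimmed C442G heterozygotes had 28 and 31, against 27 and 33, and 62.8% and 62.3% of all genes, against 63.5% and 64.4%. On the trimmed lists of the knockout set 29 receptor genes were closed in both wild types. Of these 1 was open in both Aire -/- libraries, against 1.79% over all genes so closed. Another 11 were open in both wild types, and 3 of these were closed in both Aire -/- libraries, against 3.3% over all genes so open. Among the 3 were Gabra4 and Gabrb1, which share 1 peak. The C442G wild types have lists of about the knockouts' length, and there the Aire -/- counts of 28 and 27 stood beside 27 and 33. A comparison with those wild types was chosen after seeing the data. There 1 of 18 receptor genes closed in both wild types was open in both Aire -/- libraries, against 1.46% of all genes. Of 25 open in both wild types, 3 were closed in both Aire -/- libraries, against 2.28%. The shares over all genes are over those likewise closed or open.

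**Figure D1:**
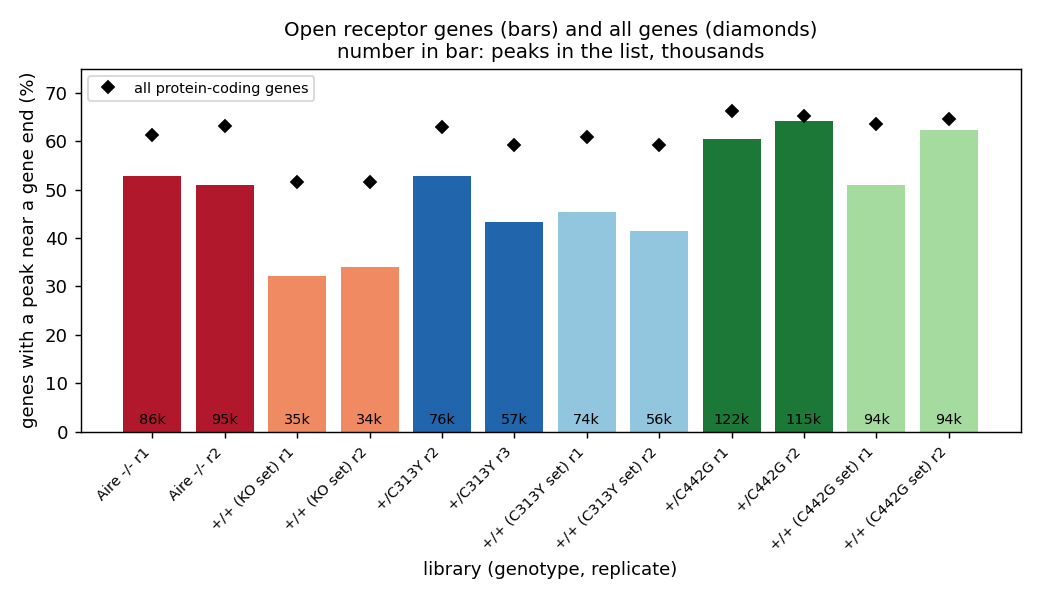
Share of the 53 receptor genes that were open (bars, percent) in each of the 12 libraries, mutants left of their wild types, with the share over all 21631 genes (diamonds) and the list length inside each bar (k stands for 1000 peaks). The bars lie below the diamonds in all 12 libraries, and the 2 lowest bars, 32.1% and 34.0%, are the wild types with the shortest lists.

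Across libraries, 8 of the 53 receptor genes (15.1%) were open in all 12, against 46.6% of all genes. Another 13 (24.5%) were open in none, against 25.8% of all genes. The remaining 32 were open in some libraries, of which 14 were open in 9 to 11 and 6 in 1 or 2. The 8 constant genes were Chrnb1, Chrne, Chrng, Chrna5, Chrna7, Gabra5, Gabre and Grin2d, and 5 of these encode nicotinic subunits. Replicates of 1 group disagreed on 11 of the 53 in Aire -/- cells and 13 in their wild types, where 6.50% and 8.01% of all genes disagreed. In C313Y heterozygotes and their wild types 5 and 8 disagreed, against 6.34% and 8.19% of all genes. In C442G heterozygotes and theirs 6 and 10 did, against 4.86% and 5.68%.

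**Figure D2:**
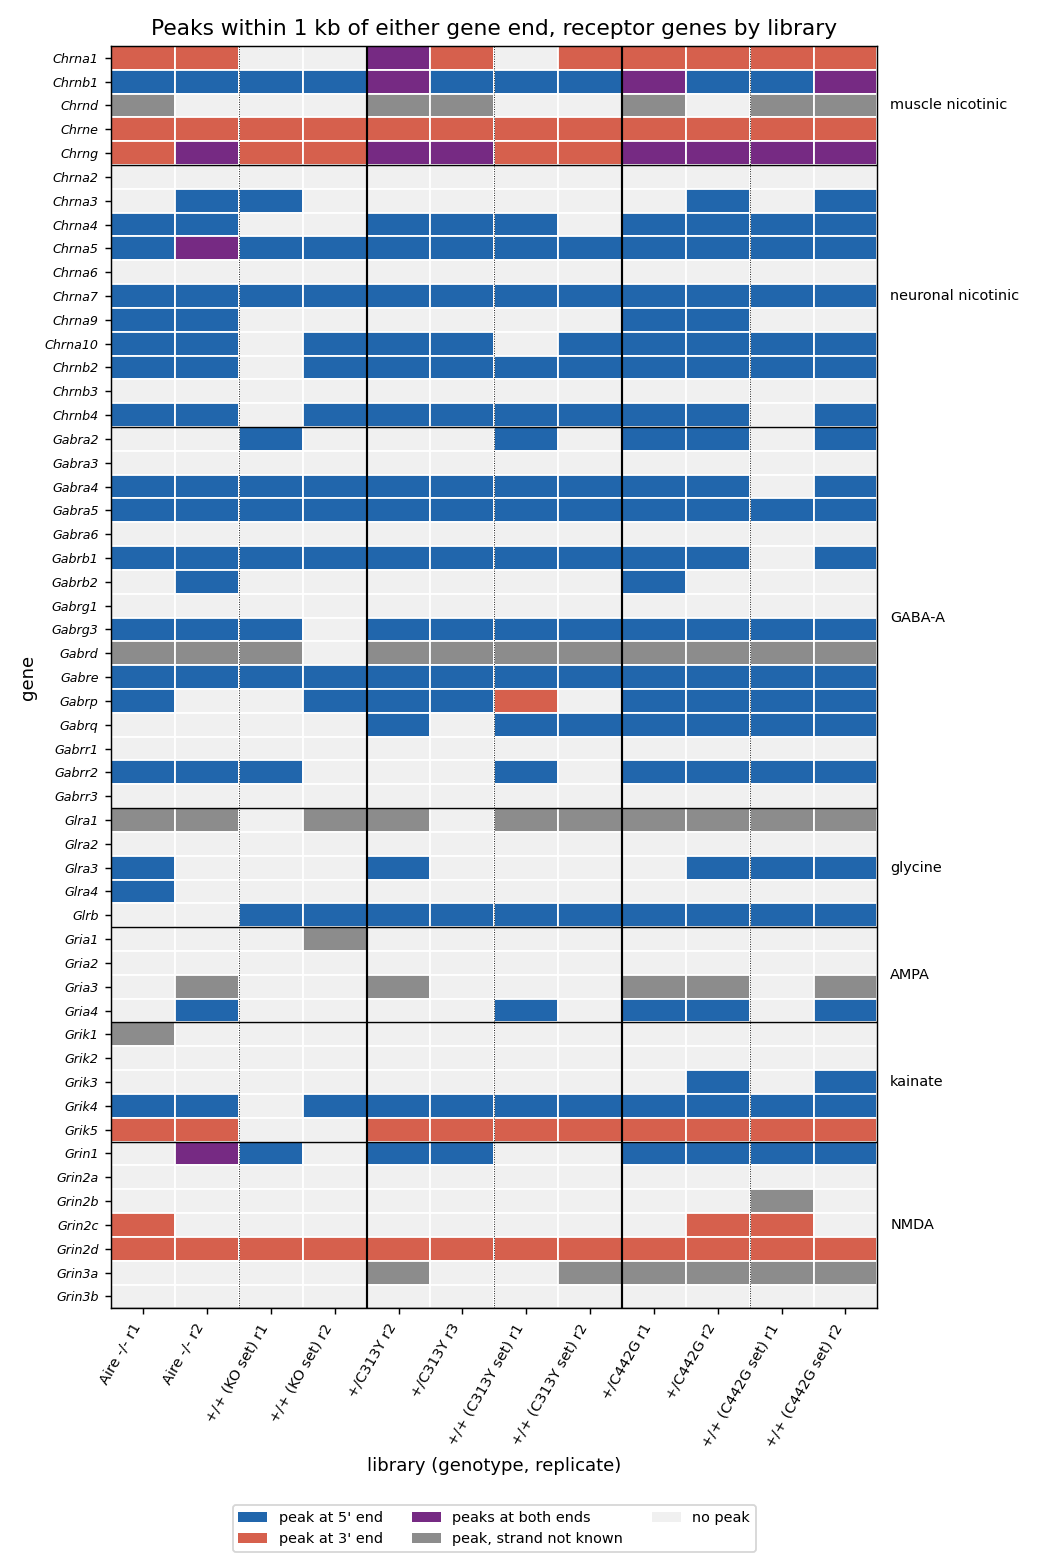
Each row is a receptor gene and each column a library, with colour for the gene end at which a peak lay within 1 kb and grey where the strand was not known. Most coloured cells are 5′ peaks, the rows of Chrna1, Chrne, Grik5, Grin2c and Grin2d are mostly red for the 3′ end where coloured, and 13 rows are blank throughout.

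Chrna1, the alpha subunit of the muscle nicotinic receptor, binds acetylcholine and carries the main site of autoantibodies in myasthenia gravis. The gene (identifier 11435) lies on chromosome 2 from 73563281 to 73580338, minus strand. It was open in both Aire -/- libraries and in neither wild type of that set. It was open in both C313Y heterozygotes and in 1 of 2 wild types, replicate 2, and in both C442G heterozygotes and both wild types. In all, it was open in 6 of 6 mutant libraries and in 3 of 6 wild types. With labels permuted within each set, this difference of 3 libraries had an exact two-sided p of 0.167 and an adjusted p of 1 over all genes. That 0.167 is the lowest p that its numbers of open libraries in each set allow. In the 2 against 2 of a single set the smallest exact p is 0.333, so no gene can pass within a set. On lists trimmed to equal length Chrna1 was closed in Aire -/- replicate 1, which ended its knockout call.

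The peaks of Chrna1 lay at its 3′ end. One region inside the gene, chr2:73563657-73563992, held a peak in 9 libraries, and another just beyond the 3′ end, chr2:73562766-73563028, held one in 6. The authors' fold enrichment of the inner peak was 4.35 and 5.93 in Aire -/- libraries, with no peak in their wild types. It was 3.67 and 3.63 in C442G heterozygotes, against 3.73 and 3.43 in their wild types. The outer peak had 4.06 and 4.34 in Aire -/- libraries, 4.19 and 3.81 in C442G heterozygotes and 3.32 and 3.29 in C442G wild types. The 4 lists of the C313Y set hold positions alone. There the inner peak was 169 and 81 bp wide in heterozygotes, against 221 bp in wild-type replicate 2, and no outer peak was listed. Fold values from separate lists are not on a shared scale, so here and below they describe each peak side by side and no difference between lists is drawn from them. Since all 4 C442G libraries held both regions, neither was particular to mutants.

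**Figure D3:**
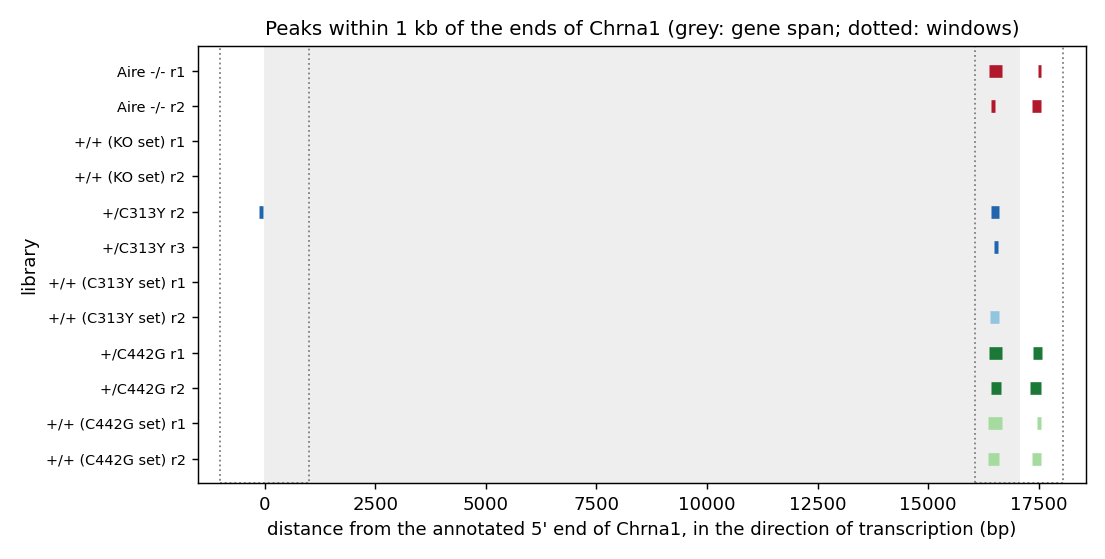
Peaks within 1 kb of the ends of Chrna1 by library, drawn to scale as distance in bp from the annotated 5′ end in the direction of transcription, with the gene span in grey and the windows dotted. Peaks of 9 libraries stack at the 3′ end, and a single short peak, in C313Y heterozygote replicate 2, touches the 5′ side.

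The promoter of Chrna1 was under a peak in 1 of 12 libraries. That peak, in C313Y heterozygote replicate 2, was 79 bp wide and ran from -120 to -42, counted from the transcription start at 0. The promoter is printed to show where this single peak fell, beside 4 others chosen for contrast: Chrna7 and Gabre, covered in all 12 libraries, and Glrb and Grin1, whose cover changed between libraries. Each is the 250 bases before the start from RefSeq, build GRCm38.p6, whose coordinates are those of mm10, written 5′ to 3′. Capitals mark bases under a peak in at least 50% of the libraries that had a peak there.
Chrna1 promoter, chr2:73580339-73580588, minus strand: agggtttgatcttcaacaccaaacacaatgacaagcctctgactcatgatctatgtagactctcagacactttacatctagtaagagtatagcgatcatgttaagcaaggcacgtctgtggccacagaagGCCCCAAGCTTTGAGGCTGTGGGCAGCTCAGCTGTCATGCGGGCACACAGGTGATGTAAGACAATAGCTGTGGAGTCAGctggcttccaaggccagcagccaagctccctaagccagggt
Chrna7 promoter, chr7:63212527-63212776, minus strand: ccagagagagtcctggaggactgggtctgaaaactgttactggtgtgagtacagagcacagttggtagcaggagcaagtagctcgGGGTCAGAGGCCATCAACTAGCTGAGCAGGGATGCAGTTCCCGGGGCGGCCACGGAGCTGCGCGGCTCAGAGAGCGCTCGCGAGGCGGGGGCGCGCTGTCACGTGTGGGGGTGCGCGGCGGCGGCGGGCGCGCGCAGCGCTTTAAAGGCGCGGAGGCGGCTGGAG
Gabre promoter, chrX:72274722-72274971, minus strand: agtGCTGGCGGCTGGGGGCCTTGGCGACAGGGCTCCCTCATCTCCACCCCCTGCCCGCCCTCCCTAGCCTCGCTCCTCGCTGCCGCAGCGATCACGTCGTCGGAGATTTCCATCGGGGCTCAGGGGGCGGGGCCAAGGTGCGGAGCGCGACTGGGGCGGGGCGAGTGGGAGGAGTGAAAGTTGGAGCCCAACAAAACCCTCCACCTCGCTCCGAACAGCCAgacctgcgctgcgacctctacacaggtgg
Glrb promoter, chr3:80913661-80913910, minus strand: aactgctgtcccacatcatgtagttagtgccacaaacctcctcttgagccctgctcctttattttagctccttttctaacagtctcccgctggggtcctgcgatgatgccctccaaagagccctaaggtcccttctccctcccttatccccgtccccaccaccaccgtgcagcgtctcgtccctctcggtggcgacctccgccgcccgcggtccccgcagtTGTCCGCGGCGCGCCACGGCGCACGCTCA
Grin1 promoter, chr2:25319188-25319437, minus strand: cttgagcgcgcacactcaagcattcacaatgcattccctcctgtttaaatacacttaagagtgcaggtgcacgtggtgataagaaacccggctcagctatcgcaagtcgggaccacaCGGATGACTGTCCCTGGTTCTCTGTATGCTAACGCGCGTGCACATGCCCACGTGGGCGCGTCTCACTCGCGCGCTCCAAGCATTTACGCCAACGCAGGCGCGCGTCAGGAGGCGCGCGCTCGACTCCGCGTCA
The capitals of Chrna1 include the E-box letters CAGCTG, a motif that muscle regulators of the MyoD family bind, at -92 to -87, and end within a further CAGCTG at -44 to -39. A related E-box, CAGGTG, stands at -73 to -68. CAGCTG, which reads alike on both strands, occurred in the 250 bases of 7 of 41 receptor genes with a RefSeq promoter, against 13.9% of 17274 genes. CAGGTG, searched on both strands, occurred in 13 of 41 against 19.3%, and the TATA-box letters TATAAA in 5 of 41 against 13.8%. The motifs searched do not overlap in the Chrna1 promoter, and a match marks letters only.

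Of the other muscle subunits, Chrnb1, Chrne and Chrng were open in all 12 libraries. Chrnb1 encodes the beta subunit, and its 5′ peak had folds of 11.4 and 10.8 in Aire -/- libraries, against 8.91 and 8.28 in their wild types. In the C442G set its 5′ peak had 15.6 and 15.03 in heterozygotes, against 10.1 and 13.8 in wild types. In the 8 scored lists these peaks stood at or above the 95.2 percentile, but they also lay within 1 kb of Fgf11, so they cannot be given to Chrnb1 alone. Chrne encodes the adult epsilon subunit, and its peaks lay at the 3′ end, near Mink1 and 4930544D05Rik as well. Chrng, the gamma subunit of the fetal receptor, had a 3′ peak in all 12 libraries. Its folds were 6.48 and 7.23 in Aire -/- libraries, against 4.73 and 4.50 in their wild types, and 8.11 and 8.45 in C442G heterozygotes, against 5.31 and 5.25. A weaker peak of Chrng inside its first kilobase, chr1:87206209-87206596, was listed in 5 mutant and 2 wild-type libraries. In the C313Y set both heterozygotes and neither wild type held it. There it was only 78 and 76 bp wide, at percentiles of 4.37 and 0.575 of their lists by width.

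Chrnd, the delta subunit, was open in both C313Y heterozygotes and in neither wild type of that set. It was open in 1 of 2 Aire -/- libraries and neither wild type, and in 1 of 2 C442G heterozygotes against 2 of 2 wild types. The peak, chr1:87190299-87190684, lay at the lower-coordinate end. Its width was 308 and 117 bp in the C313Y heterozygotes, its fold 3.77 in Aire -/- replicate 1 and 3.20 in C442G heterozygote replicate 1, against 3.82 and 4.34 in C442G wild types. The direction thus differed between the C313Y and C442G sets, and over all sets the difference of 2 libraries had an exact p of 0.583. All told, the 5 muscle genes gave 5 and 4 open in Aire -/- libraries, against 3 and 3 in wild types, 5 and 5 in C313Y heterozygotes, against 3 and 4, and 5 and 4 in C442G heterozygotes, against 5 and 5. The share over all genes was 61.3% and 63% in Aire -/- libraries, against 51.6% and 51.6%. In C313Y heterozygotes this share was 63% and 59.2%, against 61% and 59.2%.

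Against their own wild types, 4 receptor genes were open in both Aire -/- libraries among 29 closed in both wild types (13.8%), and 11.8% of all genes did the same. The count was near that background. The 4 were Chrna1, Chrna4, Chrna9 and Grik5. A single gene, Glrb, was closed in both Aire -/- libraries among 11 open in both wild types, where 0.0582% of all genes were. In the C313Y set 2 of 26 (7.69%), Chrnd and Grin1, were open in both heterozygotes alone, against 2.36% of all genes, and 0 of 19 went the other way, against 0.661%. In the C442G set 1 of 18 (5.56%), Chrna9, was open in both heterozygotes alone, against 2.7%, and 0 of 25 went the other way, against 0.476%. Each share over all genes is likewise taken over the genes closed, or open, in both wild types of the set.

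No receptor gene passed a test, but the test could hardly call one. Over the 3 sets the exact permutation test permutes labels within each set and can give no p below 0.00926. A gene open in all or none of the libraries of a set cannot reach even that floor. After adjustment over 21631 genes, a p at the floor passes only if a large share of all genes reach it together. The test called 17 genes (0.0786%) at an unadjusted p under 0.05, none of them a receptor gene. At an adjusted p under 0.05 it called 0 of 21631 genes, which for single genes was all but fixed in advance. Among receptor genes open in 1 to 11 libraries, 22 were open in more mutants than wild types, 5 in fewer and 5 in as many. The share with more mutants was 68.8%, against 69.8% of the 5980 genes at large open in 1 to 11 libraries, so the receptor genes did not stand apart from that background. In bulk cells, fewer cells with an open site and less opening per cell cannot be told apart.

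Among the neuronal nicotinic genes, Chrna9 was open only in mutants. It encodes the alpha subunit known from cochlear hair cells, where it pairs with the product of Chrna10. It was open in both Aire -/- libraries and in neither of their wild types, and in both C442G heterozygotes and in neither of theirs. It was closed in all 4 C313Y-set libraries, so the count was 4 of 6 mutants against 0 of 6 wild types. This difference of 4 libraries had an exact two-sided p of 0.0556, the lowest that its numbers of open libraries allow, and an adjusted p of 1. The peak, chr5:65933826-65934181, had folds of 3.77 and 3.72 in Aire -/- libraries and 4.40 and 4.59 in C442G heterozygotes, at percentiles of 35.6, 32.9, 51.1 and 46.4 of their lists. It ran from -1028 to -673 of the annotated 5′ end, and with a window of 500 bp the gene was closed in all 12 libraries. The start in the RefSeq promoter table lay 32270 bp inside the span, and that promoter was under no peak in any library. With a −log10 q of at least 3 required, or on lists trimmed to equal length, Chrna9 was no longer open in both Aire -/- libraries.

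Chrna4 pairs with Chrnb2 in the most common nicotinic receptor of the brain. It was open in both Aire -/- libraries and in neither wild type of the set, in both C313Y heterozygotes against 1 of 2, and in both C442G heterozygotes against 2 of 2. The peak at its 5′ end, chr2:181043535-181043918, had folds of 5.79 and 5.98 in Aire -/- libraries. In the C442G set it had 6.05 and 8.32 in heterozygotes, against 5.65 and 4.95 in wild types. It was 172 and 361 bp wide in C313Y heterozygotes, against 139 bp in wild-type replicate 1. The pattern over libraries, 6 of 6 mutants and 3 of 6 wild types, was that of Chrna1 save for which C313Y wild type was open, and its exact p was also 0.167. Its RefSeq start lay 4402 bp further inside the gene, where 2 libraries had a peak.

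Chrna5 and Chrna7 were open in all 12. Chrna7 encodes a subunit that forms a receptor by itself, and its peak sat on the start, covering the promoter printed above. Its folds were 7.30 and 5.73 in Aire -/- libraries, against 4.50 and 5.03 in wild types, and 10.1 and 12.01 in C442G heterozygotes, against 9.28 and 10.4. Chrna5, an accessory subunit, had 8.94 and 10.02 in Aire -/- libraries, against 4.32 and 6.05, and 9.09 and 9.67 in C442G heterozygotes, against 8.24 and 7.02. Within their lists these peaks ranked between the 45.6 and 94.5 percentile. Chrnb2 was open in 6 of 6 mutants and 5 of 6 wild types, and Chrna10 and Chrnb4 in 6 and 4. Chrna3 was open in 2 and 2, while Chrna2, Chrna6 and Chrnb3 were closed in all 12. Summed over the 11 neuronal nicotinic genes, 7 and 8 were open in Aire -/- libraries, against 3 and 5 in wild types, 6 and 6 in C313Y heterozygotes, against 5 and 5, and 7 and 8 in C442G heterozygotes, against 5 and 7. Of all genes, 61.3% and 63% were open in Aire -/- libraries, against 51.6% and 51.6%. In C313Y heterozygotes 63% and 59.2% were, against 61% and 59.2%.

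The 16 GABA-A genes were not open more often in the mutants of the C313Y set. There 8 and 7 were open in heterozygotes, against 10 and 7 in wild types. In Aire -/- libraries 8 and 8 were open, against 8 and 5, and in C442G heterozygotes 11 and 10, against 7 and 10. None of the 16 genes was open in both mutants and neither wild type of any set, or the reverse. At the level of regions, the 5′ region of Gabrp, chr11:33578187-33578684, was listed in both C313Y heterozygotes, 367 and 98 bp wide, and in neither wild type. Wild-type replicate 1 of that set was open through a peak at the 3′ end of Gabrp. Gabre, the epsilon subunit gene, was open in all 12 with its peak on the promoter printed above. Its folds were 6.07 and 4.93 in Aire -/- libraries, against 4.28 and 5.72 in wild types, and 7.06 and 7.50 in C442G heterozygotes, against 5.62 and 6.40. Gabra5 was open in all 12 as well, but its peak also lay within 1 kb of a neighbouring gene, and its RefSeq start lay 80957 bp inside the span.

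Gabra4 and Gabrb1 lie head to head and shared a single peak, chr5:71657701-71658439, which was listed in 11 libraries and was missing in C442G wild-type replicate 1. They therefore count as 1 site. Gabrg3 and Gabrd were each open in 11, the gap being wild-type replicate 2 of the knockout set. Gabrq, the theta subunit gene, was open in 3 mutants and 4 wild types and closed in all 4 libraries of the knockout set. Gabrp was open in 9 libraries, Gabrr2 in 8, Gabra2 in 5 and Gabrb2 in 2. Gabra3, Gabra6, Gabrg1, Gabrr1 and Gabrr3 were closed throughout.

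Among the 5 glycine receptor genes, Glrb went the opposite way to Chrna1 in the knockout set. It encodes the beta subunit, which ties the receptor to the scaffold gephyrin. It was closed in both Aire -/- libraries and open in both of their wild types and in all 8 libraries of the other sets. Its folds in those wild types were 3.90 and 4.18, and in the C442G set 3.82 and 4.52 in heterozygotes, against 4.50 and 4.27. The widths were 147 and 169 bp in C313Y heterozygotes, against 244 and 215 bp in wild types. The difference of -2 libraries over all sets had an exact p of 0.333. The call rested on weak peaks: in the 2 wild types of the knockout set their −log10 q was 1.89 and 2.38, and they covered different stretches, from -115 to 30 and from 138 to 238 relative to the start. With a −log10 q of at least 3 required, Glrb was no longer open in these wild types.

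Glra1, the main alpha subunit gene of the spinal cord, was open in 5 of 6 mutants and 5 of 6 wild types. Glra3 was open in 3 and 2, Glra4 in Aire -/- replicate 1 alone, and Glra2 in none. The 4 AMPA genes were open seldom: Gria3 in 4 mutants and 1 wild type, Gria4 in 3 and 2, Gria1 in 1 wild type, and Gria2 in none by this rule. Gria3 was open in 1 of 2 Aire -/- libraries against 0 of 2, in 1 of 2 C313Y heterozygotes against 0 of 2, and in 2 of 2 C442G heterozygotes against 1 of 2. Its difference of 3 libraries had an exact p of 0.25.

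Among the 5 kainate receptor genes, Grik5 was open in both Aire -/- libraries and in neither wild type of the set, and in all 8 other libraries. Its product joins the other kainate subunits in receptors of high affinity. Its difference of 2 libraries had an exact p of 0.333. The knockout call ended with a window of 2500 bp or a −log10 q of at least 3. It also ended on lists of equal length and with the C442G wild types as controls. All its peaks lay at the 3′ end, in 2 regions that the gene-level call joins. The inner one, chr7:25010167-25010498, was listed in 6 of 6 mutants and 2 of 6 wild types, both of the C442G set. Its folds were 4.68 and 3.52 in Aire -/- libraries, and 5.12 and 5.41 in C442G heterozygotes, against 4.52 and 4.36 in their wild types. The outer one, chr7:25008723-25008925, was listed in 1 mutant and 3 wild types. Both C313Y wild types were open through the outer region alone, so at the level of regions the inner site was open in both C313Y heterozygotes and neither wild type. Its peaks there were 90 and 264 bp wide. Grik4 was open in 11 libraries with 5′ folds of 6.38 and 7.00 in Aire -/- libraries, against 4.44 in wild-type replicate 2 alone. Grik3 was open in 2 libraries, Grik1 in 1 and Grik2 in none.

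Among the 7 NMDA genes, Grin1 encodes the subunit that every NMDA receptor contains. It was open in both C313Y heterozygotes and in neither wild type of that set. In the knockout set it was open in 1 of 2 Aire -/- libraries against 1 of 2, and in the C442G set in 2 of 2 against 2 of 2. Its 5′ peak, chr2:25318985-25319352, was 276 and 234 bp wide in the C313Y heterozygotes. Its fold was 4.15 in Aire -/- replicate 2, against 4.61 in wild-type replicate 1, and 3.57 and 4.46 in C442G heterozygotes, against 3.27 and 4.19. The promoter printed above was under a peak in 5 mutants and 1 wild type. The gene-level difference of 2 libraries had an exact p of 0.5, and the C313Y call ended with a window of 2500 bp.

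Grin2d was open in all 12 through a peak 3′ of the gene that also lay near Grwd1. That peak had folds of 9.10 and 7.68 in Aire -/- libraries, against 4.66 and 5.62, and 9.29 and 10.5 in C442G heterozygotes, against 9.50 and 8.85. Grin2d's own RefSeq promoter was under a peak in 3 libraries. Grin3a was open in 3 mutants and 3 wild types, Grin2c in 2 and 1, and Grin2b in 1 wild type. Grin2a and Grin3b were closed throughout.

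At the level of peaks rather than genes, the 53 receptor genes had 52 separate regions at their ends, the shared region of Gabra4 and Gabrb1 counted once. Of these, 8 were present in all 12 libraries and 13 in a single one. Regions in both mutants and neither wild type numbered 5 in the knockout, 5 in the C313Y and 1 in the C442G set. The reverse held for 1, 0 and 0. No share over the regions of all genes was counted, so these region calls have no background. Where the strand was known, 28 of the 32 open genes had a 5′ peak in at least 1 library and 10 a 3′ peak, and 4 (Chrne, Grik5, Grin2c and Grin2d) had 3′ peaks alone. For 5 open genes all peaks lay near another gene too.

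The peaks were middling in strength. In each list every peak was ranked by the authors' −log10 p (in the C313Y set, by width) and the strongest peak of each open gene was placed as a percentile. The median receptor gene stood at 53.6 and 63.3 in Aire -/- libraries, against 52.0 and 45.1 in their wild types, while the median of all open genes stood at 87.1 and 88.2, against 77.9 and 79.4. In C313Y heterozygotes the receptor median was 69.1 and 65.2, against 61.8 and 65.0 in wild types. In C442G heterozygotes it was 59.6 and 55.3, against 59.2 and 42.8. It lay below the median of all open genes in each of the 12 lists.

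**Figure D4:**
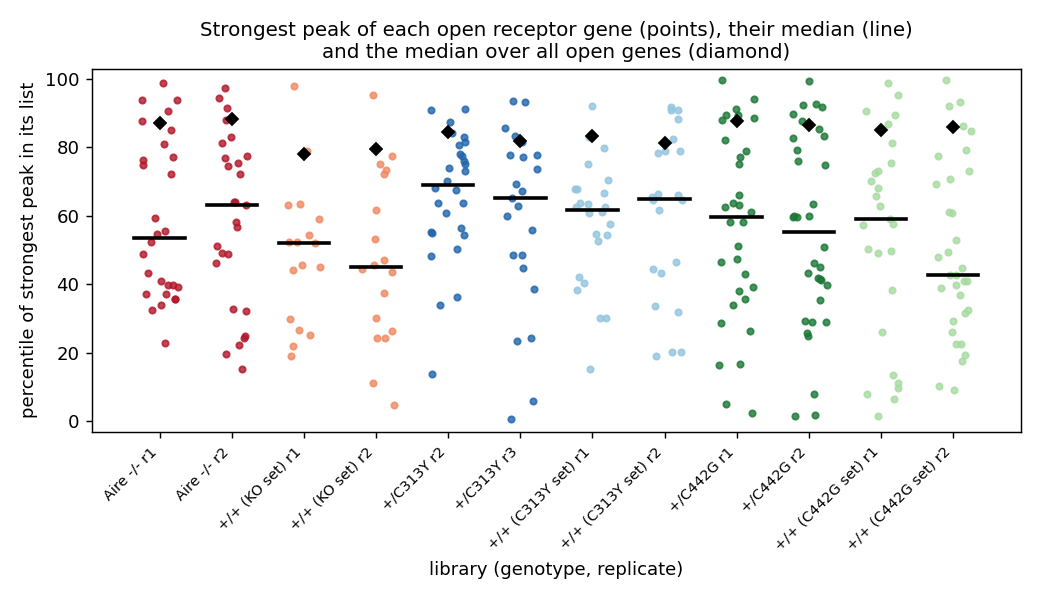
Percentile, within its own list, of the strongest peak of each open receptor gene (points) by library, mutants left of their wild types, with the median of these genes (line) and of all open genes (diamond). The lines lie between 42.8 and 69.1 and the diamonds between 77.9 and 88.2, and the points cover nearly the whole range.

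Promoters gave the same contrast with genes at large. The RefSeq promoter, 250 bases before to 50 after a start, was under a peak in all 12 libraries for 3 of 41 receptor genes (7.32%), Chrna5, Chrna7 and Gabre, against 44.8% of 17274 genes. It was under a peak in at least 1 library for 26 of 41 (63.4%), against 66.9%. Of 23 covered in 1 to 11 libraries, 14 (60.9%) were covered in more mutants than wild types and 5 (21.7%) in fewer, against 70.1% and 14.7% over all genes. Chrnb2 was covered in 6 mutants and 2 wild types. Grik2 and Gria2 were closed by the rule on gene ends, yet had promoters under a peak in 9 libraries (6 mutants, 3 wild types) and in 4 (1 mutant, 3 wild types), because their RefSeq starts lay 1407 and 1392 bp inside the span. In 8 of the 41 genes the nearest start lay over 1 kb inside.

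The contrast was also present among promoters rich in CpG. The observed to expected CpG ratio of the promoters had a median of 0.54 in receptor genes and 0.62 in all genes. It was at least 0.6 in 18 of 41 receptor genes (43.9%), against 51.5% of all genes. Of these 18, 5 (27.8%) were open in all 12 libraries, against 74.3% of all genes with such promoters. Among those below 0.6, 3 of 23 (13.04%) were open in all 12, against 18.7%.

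Genes that act with these receptors were counted from lists chosen with earlier results known. Of 7 genes of neuromuscular junction assembly, 2 were open in all 12 and Lrp4, a receptor for agrin, was open in both Aire -/- libraries and neither of their wild types. Of 27 scaffold and auxiliary genes, 10 were open in all 12, and, as background, 46.6% of all genes were open in all 12 and 11.8% of those closed in both knockout-set wild types had the Lrp4 pattern. In this list Dlg3, Shank2 and Cnih2 had the Lrp4 pattern, while Dlg3 went the other way in the C313Y set and Tmem35a in the C442G set. Of 9 other ligand-gated channel genes, Htr3b and P2rx7 had the Lrp4 pattern. Of 14 genes of transmitter synthesis and transport, Slc6a9 had it too, and 1 was open in all 12. Slc17a7, a vesicular glutamate transporter gene, was open in both C313Y heterozygotes alone and overall in 4 of 6 mutants and 0 of 6 wild types, with an exact p of 0.0833. None of these passed the test over all genes, each adjusted p being 1, but that test could hardly call a single gene. Of 7 skeletal muscle marker genes, 3 and 5 were open in Aire -/- libraries, against 2 and 2, 4 and 3 in C313Y heterozygotes, against 2 and 3, and 5 and 3 in C442G heterozygotes, against 3 and 4. Of 7 neuronal marker genes, 6 and 4 were open in Aire -/- libraries, against 3 and 3, 5 and 6 in C313Y heterozygotes, against 6 and 4, and 6 and 6 in C442G heterozygotes, against 5 and 6. As background to both marker lists, 61.3% and 63% of all genes were open in Aire -/- libraries, against 51.6% and 51.6%.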

How the data were processed

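ATAC-seq peak lists of 12 mTEChi libraries were analysed. Per the submitters' processing notes, reads were handled with cutadapt, Bowtie2, Picard and MACS2 on mm10. Versions, duplicate removal, any shift for the transposase and any control could not be read from the sources used here, which do not give them. Of the deposited files, 8 hold per peak the authors' score, their fold enrichment and their −log10 p and −log10 q, and 4, those of the C313Y set, hold positions only. Peaks were called per library, as 1 list was deposited for each. Fold, −log10 values and the authors' score depend on each library's depth, so they served to rank peaks within a list and are otherwise printed as descriptions, with no difference between lists drawn from them.

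Gene spans came from RefSeq GRCm38.p6, and strand and promoters from its promoter table, which held 41 of the 53 genes. A gene was open when a peak overlapped the 1000 bp on either side of either end by at least 1 bp. Mutant minus wild-type open libraries were tested by exact two-sided permutation within sets, with Benjamini-Hochberg adjustment over 21631 genes, and this was tested on simulated data. Python 3.11.15, numpy 2.4.6, pandas 2.3.3 and scipy 1.17.1 were used. Members and gene lists were chosen with earlier results of these data known. Genes named with values are Chrna1, receptor genes open in both mutants alone or both wild types alone in a set, those open in most libraries, and list genes open in both mutants or both wild types of a set alone. Gria3 was singled out after its values were seen. Replicate numbers did not pair samples: same-numbered deviations correlated at 0.00843 in the knockout set and 0.0170 in the C442G set. Other windows, peak thresholds, list lengths, controls and left-out libraries were tried.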

Additional observations from a re-analysis of the deposited data

How the results depend on the processing

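The counts of receptor genes, and which genes made them up, depended on the processing. With a window of 500 bp, 0 receptor genes and 186 of all genes were open in both C442G heterozygotes alone. In both C442G wild types alone there were 1 (Gabrp) and 63. A window of 2500 bp gave 1 (Gria2) and 61 of all genes in both C442G wild types alone. With 2500 bp Grik5 was no longer open in Aire -/- libraries alone, nor Grin1 in C313Y heterozygotes alone, while Grik2 and Grin2c came in. Lists of equal length gave 1 of 29 (Chrna4) in both Aire -/- libraries alone and 3 of 11 (Gabra4, Gabrb1, Glrb) in their wild types alone. Over all genes closed, or open, in both wild types the shares were 1.79% and 3.3%, and Gabra4 and Gabrb1 share 1 peak. They also gave 1 of 19 (Gabrq) in C313Y wild types alone and 1 of 25 (Chrnd) in C442G wild types alone. Of all genes open in both wild types, 0.75% and 1.48% did so. A −log10 q of at least 3, which only 8 lists allow, gave 0 lost in the knockout and 2 (Chrna9, Gria3) in C442G heterozygotes alone. It left 3 genes (Chrnb1, Chrng, Grin2d) open in all 12. Over all genes these counts were 3, 290 and 7587. At that threshold the genes of Aire -/- libraries alone were Chrna1, Chrna4, Gabrr2 and Grik4, without Chrna9 and Grik5, among 1463 of all genes. With all 6 wild types as controls 1 gene (Chrna9) was left in Aire -/- libraries and 0 in C313Y heterozygotes. Of all genes 53 and 22 were left.

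Other alternatives were chosen after seeing the data. Against the C442G wild types, Aire -/- libraries alone held 1 of 18 (Chrna9, against 1.46% of all genes) and lacked 3 of 25 (Gabrq, Glrb, Grin3a, against 2.28%). Without both wild types of the knockout set 13 receptor genes were open in all remaining libraries, as were 11310 of all genes. By RefSeq promoter, 0 genes were lost in the knockout, 2 (Gria2, Grin2d) in C442G, and 3 were covered in all 12. Over all genes these counts were 5, 48 and 7736. The promoter rule gave 3 other genes (Chrnb2, Grik2, Grik4) in Aire -/- libraries alone. It gave 2 (Chrna10, Grin1) in C313Y heterozygotes alone and 1 (Gabra4) in C442G heterozygotes alone. Over all genes the counts in these mutants alone were 619, 127 and 136. For Chrna1 the rule gave a difference of 1 library with an exact p of 1.

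Leaving out 1 library of the set at a time gave 7 to 9 genes for Aire -/- alone and 1 to 2 for its wild types alone. Over all genes these counts were 1568 to 1851, against 1128 with no library left out, and 15 to 98, against 6. In the C313Y set it gave 2 to 4 for heterozygotes alone and 0 to 3 for wild types alone. Over all genes these were 318 to 595, against 183, and 134 to 525, against 80. In the C442G set it gave 1 to 7 and 0 to 1. There the counts over all genes were 379 to 539, against 194, and 146 to 245, against 63. The 7 came without C442G wild-type replicate 2, where 539 of all genes had that pattern against 194 with it. Leaving out 1 library gave 8 to 10 receptor genes open in all the rest, and 10078 to 10535 of all genes. For Chrna1 it gave a difference of 2 to 4 libraries with exact p between 0.0556 and 0.583. Over all 19 settings the exact p for Chrna1 ran from 0.0556 to 1. A replicate block, which only a shared number supports, left a difference of 2 libraries and an exact p of 0.5 for Chrna1. No depth was given, so what a short list missed cannot be told.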

Other observations

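Peaks that overlapped the spans of the receptor genes were also counted, those at or across the gene ends included. Of the 53 genes, 51 had such a peak in at least 1 library, among them 11 of the 13 closed at both ends throughout. Chrna2, Gabrr1 and Gabrr3, closed at both ends, had an inner peak in all 12 libraries. Chrna6 and Gabra6 had none anywhere. The receptor genes are long, with a median of 42.6 kb against 17.3 kb for all genes, so the counts are given per length. Receptor genes held 20.7 and 21.4 peaks per Mb in Aire -/- libraries, against 7.50 and 6.13 in their wild types, where all genes held 50.7 and 56.3, against 22.5 and 22.5. In C313Y heterozygotes they held 17.2 and 13.2, against 18.7 and 11.2 in wild types, and in C442G heterozygotes 24.5 and 24.0, against 19.8 and 21.1. In each of the 12 libraries the value for receptor genes was below that for all genes.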
